A study of Mus musculus with 6 samples.

Results

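Oxidative phosphorylation is carried out by complexes I to V of the inner mitochondrial membrane, and the nuclear genes of these complexes are described here in mice with and without latexin (Lxn), an inhibitor of metallocarboxypeptidases, in the long-term hematopoietic stem cells known as LT-HSCs. Genes were taken by symbol: those of the Nduf a, b, c, s and v series, Sdha to Sdhd, the Uqcr series, the Cox4 to Cox8 series and the Atp5 series. Symbols that mark a pseudogene were left out. The rule found 89 of the 19938 genes that had a probe set with exactly 1 symbol, on 114 probe sets, and the brightest probe set of a gene, by its mean of 6 arrays, stood for it. Probe sets were not compared by sequence or genome position, so several probe sets of 1 gene may not be independent. Whether any of the 114 probe sets reads a pseudogene copy was not examined. Of these, 73 encode subunits used in most tissues: 34 of complex I, 4 of complex II, 8 of complex III, 10 of complex IV and 17 of complex V. A further 8 encode tissue isoforms of complex IV, and 8 encode assembly or other factors, which are described apart. Ndufa4 and Ndufa4l2, named for complex I, are counted with complex IV, where the NDUFA4 protein is known to reside.

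The 2 groups were WT mice with an intact Lxn gene and Lxn-/- mice in which exons 2 to 4 of Lxn are deleted, all of them C57BL/6 females 8 to 12 weeks old. LT-HSCs were sorted from bone marrow as cells without lineage markers or CD34, with Sca1 and c-Kit, and without a marker spelled Flt2 in the labels. Each genotype had 3 biological samples of about 100000 cells, each pooled from 10 to 20 mice and hybridized to 1 Affymetrix mouse Gene ST array, so that p-values measure the spread between pools. The labels do not say whether the mice of both genotypes were littermates.

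In oxidative phosphorylation, complexes I and II pass electrons from NADH and succinate to coenzyme Q, complex III passes them on to cytochrome c, and complex IV hands them to oxygen. Complexes I, III and IV pump protons, and complex V, the ATP synthase, lets the protons flow back and makes ATP. Most subunits are encoded in the nucleus and a few in mitochondrial DNA. LT-HSCs are known as mostly quiescent cells that rely strongly on glycolysis, and their descendants raise mitochondrial respiration when they divide and differentiate.

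Promoter motifs, which the choice by symbol did not use, were counted in these genes. RefSeq promoter sequences of build GRCm38.p6, which run from 250 bases before to 50 bases after the transcription start, matched 73 of the 89 genes and 62 of the 73 subunit genes. The core motif of ETS factors such as GABPA, CCGGAAG on either strand, lay in 17 of the 62 subunit genes (27.4%) against 9.93% of the 27025 genes with a promoter in the table. The core motif of NRF1, a regulator of respiratory chain genes, whose letters are the capitals of the Ndufaf4 and Atp5g2 stretches shown after these counts, lay in 5 of 62 (8.06%) against 1.07%. Its shorter form GCATGCGC, which every full match also contains, lay in 10 of 62 (16.1%) against 3.05%. The YY1 core AAGATGGC also lay in 10 of 62 (16.1%) against 3.19%. Among the 10 YY1 matches in the matched genes, 8 began 23 to 39 bases after the start on the gene's own strand, and the motif contains the letters of a start codon. The TATA box TATAAA lay in 6 of 62 (9.68%) against 15.7%, and the CCAAT box CCAAT in 26 of 62 (41.9%) against 41.1%. None of the 6 motifs lay in most subunit genes, and the shares were not tested. By complex, the ETS core lay in 4 of 31 genes of complex I, 2 of 3 of complex II, 2 of 5 of complex III, 3 of 8 of complex IV and 6 of 15 of complex V. Such matches describe letters in a window and do not show that a factor binds.

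The following stretches show these motifs, in capitals, in 1 promoter of each complex and in those of the complex I assembly factors Ndufaf1 and Ndufaf4, which have the lowest p-values of all 89 genes. Each reads 5′ to 3′ on the strand of the gene. Positions count back from -1, the base before the transcription start, and run from -80 to -1 except in Ndufaf4, where they run from -130 to -51. Ndufs3 lies at chr2:90904722-90904801, Ndufaf1 at chr2:119662835-119662914, Sdhd at chr9:50603850-50603929, Uqcr11 at chr10:80406822-80406901, Cox6a1 at chr5:115348959-115349038 and Atp5g2 at chr15:102671048-102671127, all on the minus strand, and Ndufaf4 at chr4:24897953-24898032 on the plus strand. The capitals mark an NRF1 core in Ndufaf4 and Atp5g2 and an ETS core in the others, read on the opposite strand in Sdhd and Cox6a1.
Ndufs3 (complex I): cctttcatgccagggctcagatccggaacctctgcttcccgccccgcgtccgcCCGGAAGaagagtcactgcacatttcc
Sdhd (complex II): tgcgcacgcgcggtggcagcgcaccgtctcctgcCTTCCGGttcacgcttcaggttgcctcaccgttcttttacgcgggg
Uqcr11 (complex III): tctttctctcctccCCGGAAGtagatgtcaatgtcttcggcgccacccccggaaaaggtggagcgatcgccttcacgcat
Cox6a1 (complex IV): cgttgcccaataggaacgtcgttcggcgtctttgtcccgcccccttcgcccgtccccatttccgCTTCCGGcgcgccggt
Atp5g2 (complex V): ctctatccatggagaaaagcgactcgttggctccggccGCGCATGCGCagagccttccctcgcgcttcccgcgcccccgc
Ndufaf1 (assembly factor): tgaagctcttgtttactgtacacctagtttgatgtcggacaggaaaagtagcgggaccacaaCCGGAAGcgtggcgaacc
Ndufaf4 (assembly factor): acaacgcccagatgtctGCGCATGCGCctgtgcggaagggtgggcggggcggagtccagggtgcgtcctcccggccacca

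Values are log2 signals, and differences are Lxn-/- minus WT on that scale. The median over all probe sets of an array ran from 7.77 to 7.91. Lxn had 8.99, 9.09 and 9.55 in WT and 8.66, 8.78 and 8.78 in Lxn-/-, a difference of -0.47 (SE 0.14, limma adjusted p = 0.993), and the sources used here do not place its probes within the gene. Of 10 genes expected in the gate, 8 were measured and all lay above the dim level, Kit with 12.80 to 12.96 and Hlf with 12.06 to 12.30. The dim level is the 95th percentile of 1205 odorant and vomeronasal receptor probe sets, 6.98 in WT and 6.90 in Lxn-/-, and a gene is counted as dim when its means in both genotypes lie below it. Of 8 genes expected to be low in the gate, 6 were measured and all 6 also lay above the dim level. That level therefore does not separate the lists. Transcripts of the negative gate marker Cd34 were not absent, with 13.01 to 13.30. Itgam had 9.40 to 10.27, Cd48 10.18 to 10.55, Cd3e 8.09 to 9.38 and Ly6g 6.71 to 10.14. Flt3 had 11.59 to 12.20, and the labels do not state whether it is the marker they spell Flt2. Of the marker lists, that of neutrophils varied most between pools, with a mean over 14 genes of 9.43 to 11.27 in WT and 9.93 to 11.62 in Lxn-/-.

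No oxidative phosphorylation gene passed the test between genotypes. At the limma threshold of an adjusted p under 0.05, the count was 0 of 89 genes, where the share of called probe sets over the whole table was 0% and the adjusted p-values of the 89 genes ran from 0.993 to 0.999. Before adjustment, 2 genes had a limma p under 0.05, both lower in Lxn-/- and both assembly factors, which is 2.25% of the 89 against 2.47% of all genes and 1.77% of genes above the dim level. No member was higher at that level, against 1.28% of all genes and 1.29% of those above the dim level. The count of 2 was 0 without WT replicate 3, 1 without Lxn-/- replicate 1 and 4 without Lxn-/- replicate 3. Among all 23410 fitted probe sets, in both directions, the count at that level was 914. Without these 3 arrays in turn it was 681, 611 and 1254, so that it also rose without Lxn-/- replicate 3. The genotypes were separate, with no overlap of their 3 values each, for 3 genes that were lower in Lxn-/- (3.37%, against 5.49% of all genes and 4.58% above the dim level) and for 1 that was higher (1.12%, against 3.3% and 3.45%). The count of 4 genes with separate genotypes was 9 with a common array median. Without 1 array, where fewer values need to be apart, it was 20, 8 and 5 without WT replicates 1, 2 and 3. Without Lxn-/- replicates 1, 2 and 3 it was 7, 14 and 24. Separate genotypes were not counted over all genes in these settings or with a common array median. These counts therefore give no result about the 89 genes. Over the 73 subunits the median difference was -0.019, with 42 lower and 31 higher, beside -0.013 over all genes, of which 56% were lower, and 53.6% of genes above the dim level. Subunit differences ran from -0.20 to 0.15, and the smallest unadjusted p in limma was 0.163.

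The 95% confidence intervals also describe how far the array signals of these genes could differ, each gene taken alone and without adjustment. They do not bound the change in transcript amount. Lxn, the gene with deleted exons, itself differed by only -0.47 on the arrays, with an interval of -0.79 to -0.15. The intervals hold for the values as normalized by the authors. With a common array median the median subunit difference was -0.064 instead of -0.019. All 73 subunits lay above the dim level, and the median half-width of their 95% confidence interval was 0.206, against 0.193 over all genes. For 71 of the 73 the interval stayed within 0.5 of 0 on either side, which is 1.41-fold, against 93.7% of all genes. The exceptions were Ndufa1, with an interval of -0.51 to 0.12, and Atp5l, with a bound of 0.52, or 1.44-fold. The difference between genotypes exceeded the standard deviation between pools of a genotype for 12 of the 73 subunits (16.4%) against 27% of all genes.

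**Figure D1:**
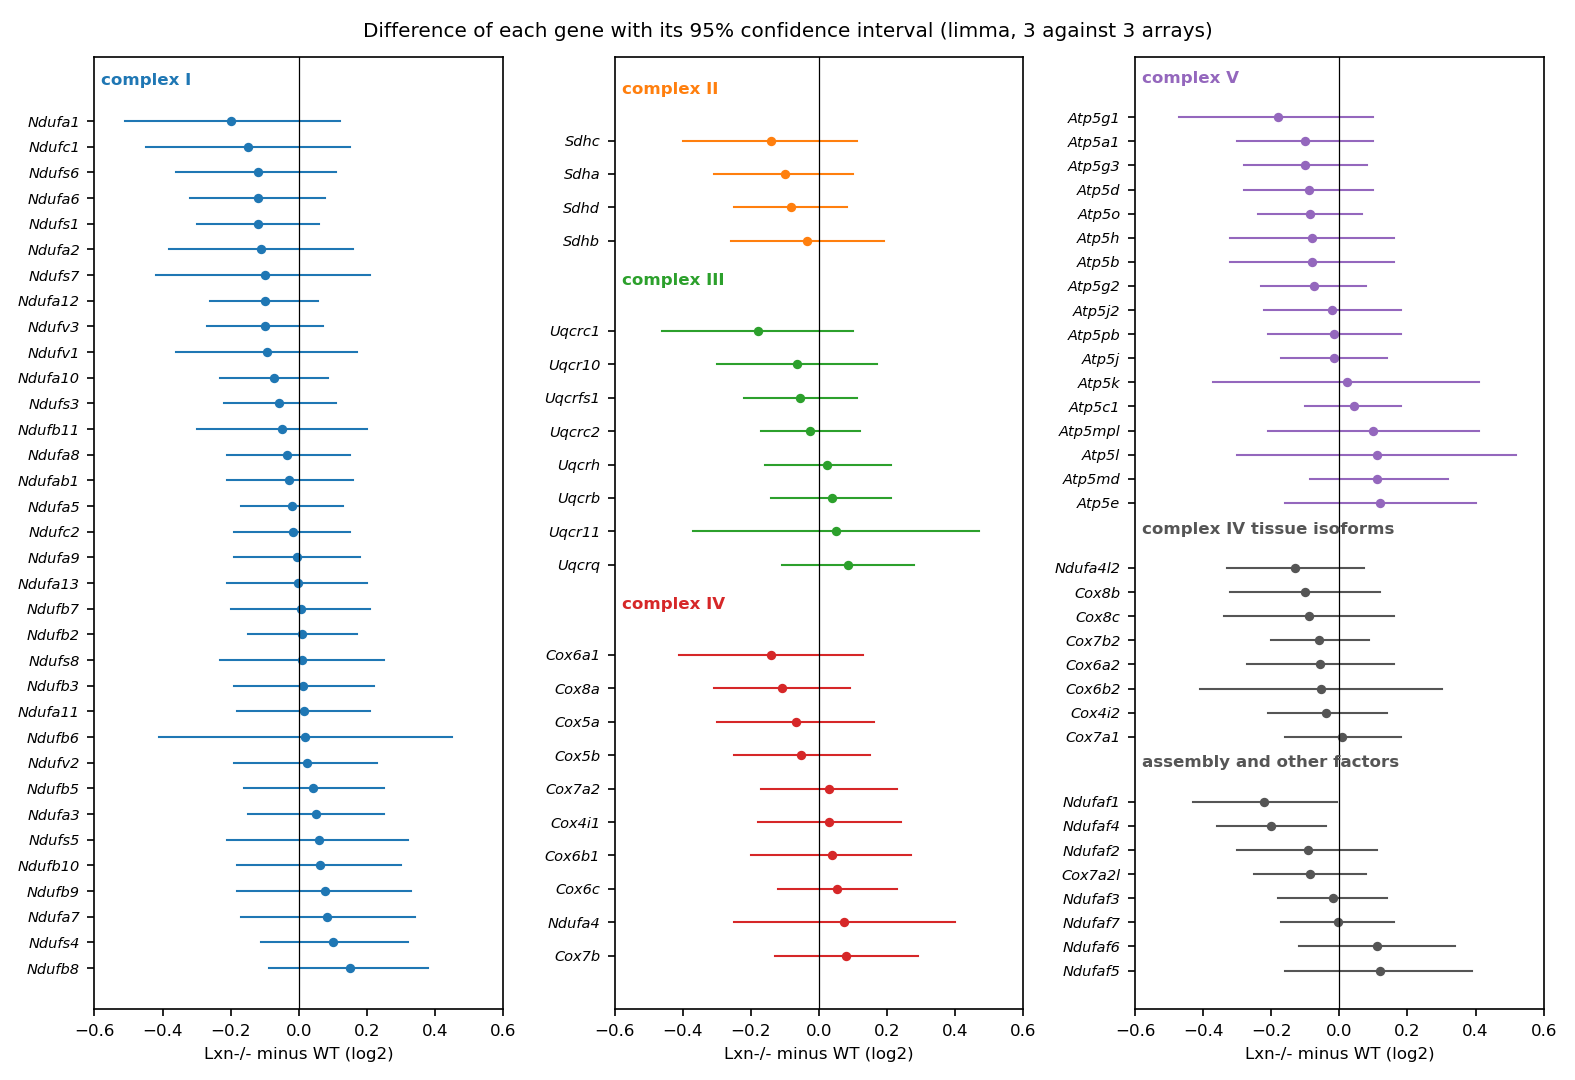
Difference between Lxn-/- and WT (x axis, log2) for each of the 89 genes (y axis), sorted within complexes I to V, complex IV tissue isoforms and factors. Points are differences and lines 95% confidence intervals from limma over 3 against 3 arrays; the intervals of Ndufaf1 and Ndufaf4 alone exclude 0 before adjustment, and none passed an adjusted p of 0.05.

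Among the assembly factors, which help put complex I together without staying in it, Ndufaf4 had 8.77, 8.79 and 8.91 in WT and 8.66, 8.63 and 8.58 in Lxn-/-. Its difference was -0.20 (SE 0.068, unadjusted p = 0.020 and adjusted p = 0.993 in limma), and the groups were separated by 0.11. Ndufaf1, a part of the assembly complex for the membrane arm, had 9.63, 9.58 and 9.84 in WT and 9.41, 9.58 and 9.41 in Lxn-/-. Its difference was -0.22 (SE 0.091, unadjusted p = 0.0443 and adjusted p = 0.993 in limma), and the groups were separated by only 0.0061, between WT replicate 2 and Lxn-/- replicate 2. The exact two-sided permutation p was 0.1 for both, the smallest that 3 arrays against 3 can give. Without single arrays the difference of Ndufaf4 ran from -0.22 to -0.16 and that of Ndufaf1 from -0.27 to -0.14.

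The remaining complex I factors did not share this pattern. Ndufaf2, a relative of the subunit Ndufa12, differed by -0.093, Ndufaf3 by -0.018 and Ndufaf7 by -0.0052, while Ndufaf5 and Ndufaf6 differed by 0.12 and 0.11. Cox7a2l, a gene linked to supercomplexes of complexes III and IV, differed by -0.087 on its brighter probe set and by 0.021 on the other. The 8 factors had a median of -0.052, with 6 lower.

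**Figure D2:**
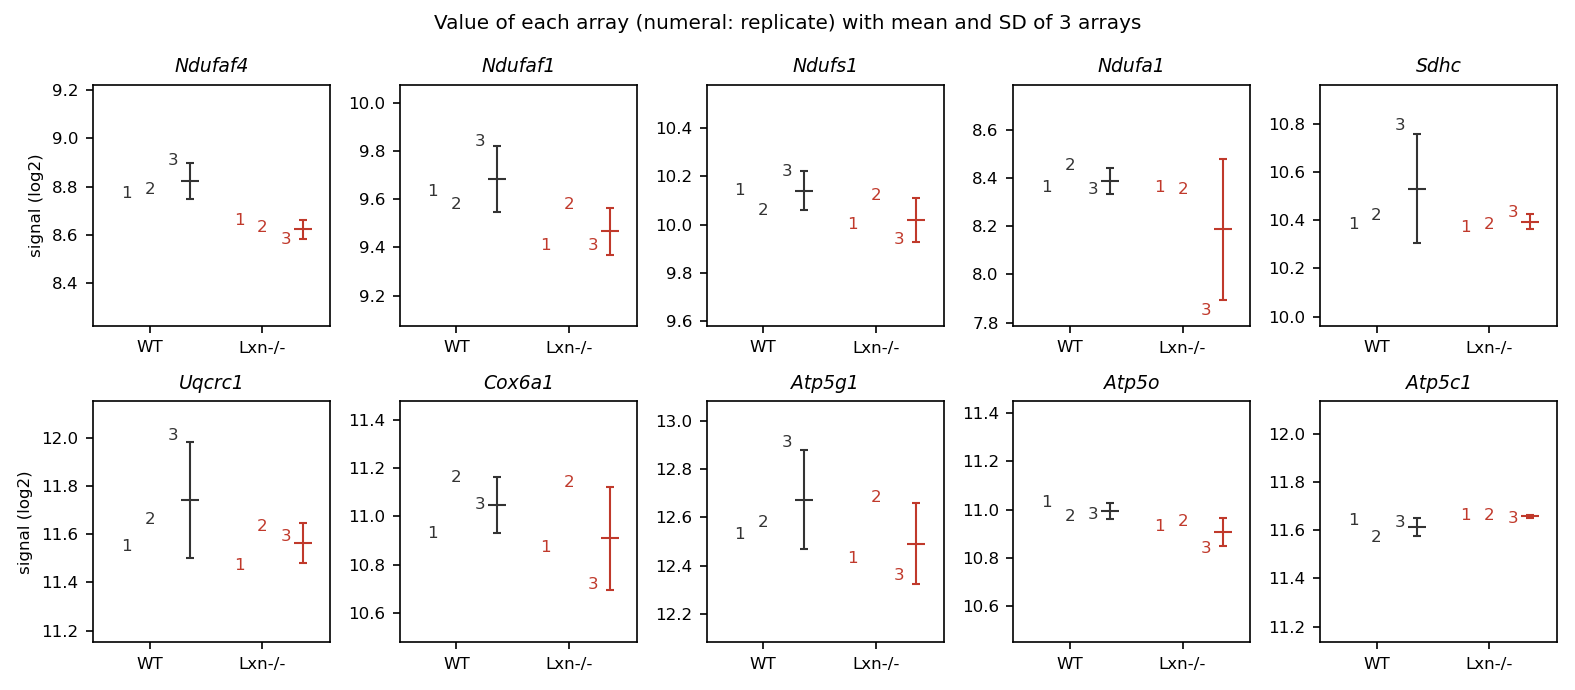
Log2 signal (y axis, a span of 1 log2 unit in each panel) of 10 genes in WT and Lxn-/- LT-HSCs (x axis); numerals mark the replicate of each array, and bars give the mean and SD of 3 arrays. The groups do not overlap for Ndufaf4, Ndufaf1, Atp5o and Atp5c1 and overlap for the other 6.

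Complex I, the NADH dehydrogenase, was represented by 6 core subunits, most of which carry the flavin or iron-sulfur clusters, and 28 accessory subunits, which surround and stabilize the core. Its 34 genes had a median difference of -0.012, with 19 lower and 15 higher. In none of them were the groups separate, against 5.49% of all genes separate and lower and 3.3% separate and higher. Ndufs1, an iron-sulfur core subunit, had the lowest p, with 10.14, 10.06 and 10.22 in WT and 10.00, 10.12 and 9.94 in Lxn-/-. Its difference was -0.12 (SE 0.077, unadjusted p = 0.163 in limma), and Lxn-/- replicate 2 lay among the WT values. Ndufa1, a small membrane subunit, had 8.36, 8.45 and 8.35 in WT and 8.36, 8.35 and 7.85 in Lxn-/-, so that its difference of -0.20 (SE 0.13) rested on Lxn-/- replicate 3 and was -0.029 without that array.

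Other members of complex I differed in both directions. Ndufa12 had 9.89, 9.80 and 9.91 in WT and 9.82, 9.77 and 9.71 in Lxn-/-, a difference of -0.10 (SE 0.068). Ndufb8, a subunit of the membrane arm, had 9.92, 9.93 and 9.95 in WT and 10.20, 10.19 and 9.85 in Lxn-/-, a difference of 0.15 (SE 0.10). Its WT values lay close together, while the Lxn-/- pools fell on both sides of them. Ndufs7, an iron-sulfur core subunit and the brightest signal of the complex, had 12.57, 12.81 and 13.08 in WT and 12.57, 12.89 and 12.70 in Lxn-/-. The WT pools of Ndufs7 spread further (SD 0.25) than the difference of -0.10 between the means. Ndufb3, the dimmest, averaged 7.96 ± 0.099 in WT and 7.97 ± 0.12 in Lxn-/- (SD, n = 3 each).

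Complex II, succinate dehydrogenase, links the TCA cycle to the respiratory chain. All 4 of its genes were lower in Lxn-/-, with a median of -0.093, but by less than their spread between pools in 3 of them. Sdha, the flavoprotein that oxidizes succinate, had 12.01, 12.17 and 12.28 in WT and 11.95, 12.05 and 12.14 in Lxn-/-, a difference of -0.10 (SE 0.089). The iron-sulfur subunit Sdhb had 10.43, 10.34 and 10.36 in WT and 10.49, 10.41 and 10.14 in Lxn-/-, a difference of -0.034 (SE 0.10). For Sdhb the lower mean came from Lxn-/- replicate 3, and without it the difference was 0.068. The membrane anchor Sdhc had 10.38, 10.42 and 10.79 in WT and 10.37, 10.38 and 10.43 in Lxn-/-, a difference of -0.14 (SE 0.11). That difference rested on WT replicate 3 and was -0.011 without it. Sdhd, the other anchor, had 10.55, 10.61 and 10.68 in WT and 10.45, 10.60 and 10.53 in Lxn-/-, a difference of -0.082 (SE 0.072). The unadjusted p-values of the 4 genes in limma ran from 0.239 to 0.737.

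Complex III, which passes electrons from coenzyme Q to cytochrome c, had a median difference of -0.0015 over 8 genes, with 4 lower and 4 higher. Uqcrc1, a core protein of the complex, had 11.55, 11.66 and 12.01 in WT and 11.47, 11.63 and 11.59 in Lxn-/-, a difference of -0.18 (SE 0.12). Here too WT replicate 3 stood above the other 5 arrays, and without it the difference was -0.042. Uqcrc2, its partner, had 12.00, 11.95 and 12.04 in WT and 11.94, 12.00 and 11.96 in Lxn-/-, a difference of -0.026 (SE 0.062). The Rieske iron-sulfur protein gene Uqcrfs1 differed by -0.055 (SE 0.070) and Uqcr10 by -0.064 (SE 0.10). Uqcrq, a small subunit, differed by 0.085 (SE 0.084), Uqcrb by 0.039 (SE 0.076) and the hinge protein gene Uqcrh by 0.023 (SE 0.080), the last 2 of which had negative values with a common array median, at -0.0065 and -0.022. Uqcr11 varied widely between Lxn-/- pools, with 10.13, 10.30 and 9.60 against 9.93, 10.17 and 9.78 in WT.

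Complex IV, cytochrome c oxidase, had a median difference of 0.029 over its 10 widely expressed subunits, with 4 lower and 6 higher, and the median was -0.016 with a common array median. Cox6a1 had 10.93, 11.16 and 11.05 in WT and 10.87, 11.14 and 10.72 in Lxn-/-, a difference of -0.14 (SE 0.12). Cox8a had 11.76, 11.81 and 12.05 in WT and 11.77, 11.76 and 11.76 in Lxn-/-, a difference of -0.11 (SE 0.086), and was -0.020 without WT replicate 3. Both had overlapping groups. Cox5a and Cox5b differed by -0.068 and -0.053, Cox6c by 0.053, Cox7b by 0.078 and Ndufa4 by 0.074. Cox4i1, which builds the regulatory subunit IV, averaged 10.34 ± 0.16 in WT and 10.37 ± 0.060 in Lxn-/- (SD, n = 3 each). Cox7a2 had 9.80 ± 0.0091 and 9.83 ± 0.15 (SD, n = 3), and Cox6b1 had 11.40 ± 0.084 and 11.44 ± 0.19 (SD, n = 3).

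Several complex IV subunits have isoforms known from heart and skeletal muscle, lung or testis, and each was set only against the dim level, because signals of different probe sets cannot be compared with each other. The testis isoform gene Cox7b2, with 5.13 to 5.26 over the 6 arrays, and the muscle isoform gene Cox8b, with 6.67 to 7.02, were the only 2 of the 89 genes that were dim in both genotypes. The muscle isoform gene Cox7a1 (6.84 to 7.05) and Ndufa4l2 (6.76 to 7.10), a gene induced by hypoxia, lay at that level. Cox4i2, the lung isoform, had 7.99 to 8.18, the testis isoform gene Cox8c 7.47 to 7.88, the muscle isoform gene Cox6a2 8.44 to 8.78 and the testis isoform gene Cox6b2 9.30 to 9.90. The 8 isoform genes had a median difference of -0.058 and p-values from 0.179 to 0.917 in limma.

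**Figure D3:**
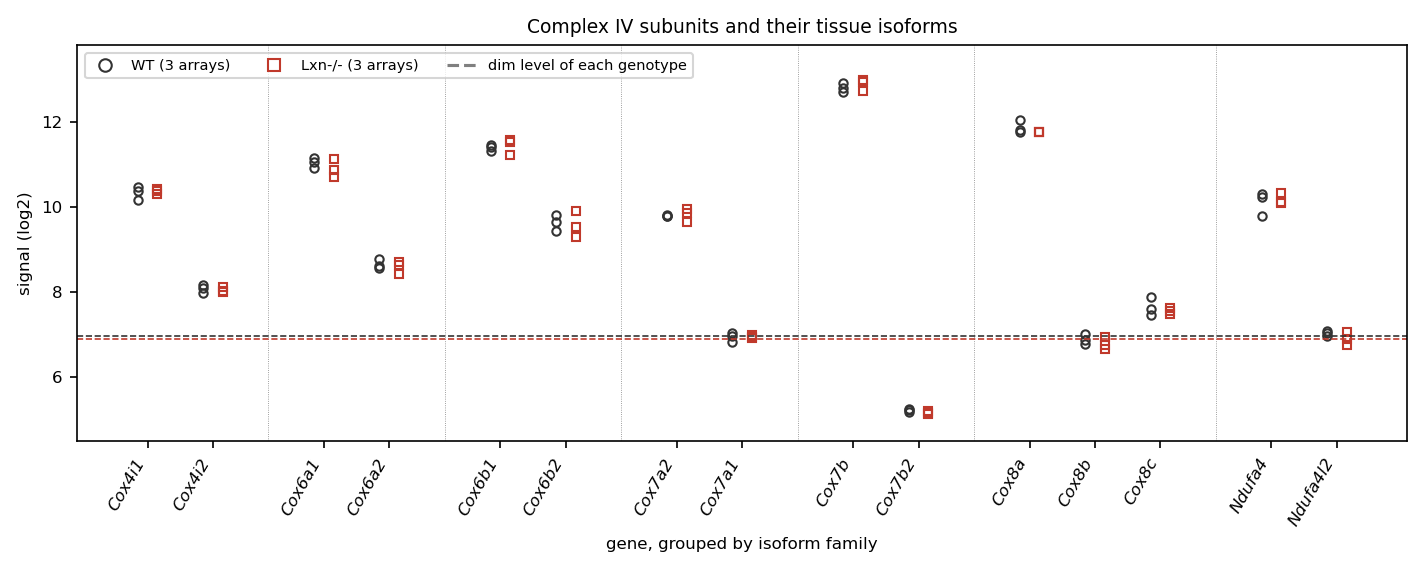
Log2 signal (y axis) of 7 complex IV subunits and their 8 tissue isoforms (x axis, by family), with 1 point per array and dashed lines at the dim level of each genotype, 6.98 in WT and 6.90 in Lxn-/-. Cox7b2 lies below the lines and Cox7a1, Cox8b and Ndufa4l2 lie at them; the height of one gene's points cannot be read against another's.

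Complex V, the ATP synthase, had a median difference of -0.022 over 17 genes, with 11 lower and 6 higher. The beta subunit gene Atp5b, which holds the catalytic site, had 13.29, 13.48 and 13.67 in WT and 13.31, 13.46 and 13.43 in Lxn-/-, a difference of -0.080 (SE 0.10). The alpha subunit gene Atp5a1 differed by -0.10 (SE 0.087) and the delta subunit gene Atp5d by -0.088 (SE 0.082), both with their highest value in WT replicate 3. The ring of c subunits that turns as protons pass is encoded by Atp5g1, Atp5g2 and Atp5g3, whose mature proteins are the same. Atp5g1 had 12.53, 12.58 and 12.91 in WT and 12.43, 12.68 and 12.36 in Lxn-/-, a difference of -0.18 (SE 0.12, unadjusted p = 0.176 in limma), and -0.065 without WT replicate 3. Atp5g2 differed by -0.075 (SE 0.066) and Atp5g3 by -0.10 (SE 0.079), so that all 3 genes were lower with overlapping groups.

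The groups were separate for 2 genes of complex V, in opposite directions. Of the 17 genes, 1 was lower (5.88%, against 5.49% of all genes and 4.58% above the dim level). The other 1 was higher (5.88%, against 3.3% and 3.45%). Counts of 1 gene give no result about the complex. Atp5o, which encodes the stalk protein that holds the catalytic head, had 11.03, 10.97 and 10.98 in WT and 10.93, 10.95 and 10.84 in Lxn-/-, a difference of -0.085 (SE 0.065) with a gap of 0.016. Atp5c1, which encodes the central shaft gamma, had 11.64, 11.57 and 11.63 in WT and 11.66, 11.66 and 11.65 in Lxn-/-, a difference of 0.042 (SE 0.061) with a gap of 0.0031. With a common array median the value of Atp5c1 was -0.0031. Small subunits of the membrane part differed in both directions, with 0.11 (SE 0.18) for Atp5l, 0.11 (SE 0.087) for Atp5md, 0.023 (SE 0.17) for Atp5k and -0.022 (SE 0.088) for Atp5j2. The 3 probe sets of Atp5md gave 0.11 to 0.19. Atp5l had 9.98, 9.76 and 9.41 in WT and 10.01, 9.99 and 9.49 in Lxn-/-, so that replicate 3 was the lowest array of each genotype. All 6 probe sets of Atp5l gave differences from 0.08 to 0.11. Atp5e, which encodes subunit epsilon, differed by 0.12 (SE 0.12) and was 0.0061 without WT replicate 3.

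Pools of the same genotype differed from each other across many subunits at once. This pattern was chosen after the values were seen and has no test. Lxn-/- replicate 3 was the lowest of the 6 arrays for 34 of the 73 subunits (46.6%) against 18.5% of all genes above the dim level, and the highest for 0 of them against 17.5%. It was the lowest for 7 of 10 genes in complex IV, 8 of 17 in complex V, 15 of 34 in complex I, 3 of 8 in complex III and 1 of 4 in complex II. Lxn-/- replicate 2 exceeded Lxn-/- replicate 3 for 66 of 73 subunits, with a median of 0.18, against 46.8% of all genes above the dim level and a median of -0.012. In complex IV that median was 0.24, beside a median difference between genotypes of 0.029. Without Lxn-/- replicate 3 the median difference between genotypes was 0.020 over all subunits and 0.081 in complex IV.

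WT replicate 3 split the subunits. As the median deviation from each gene's mean over 6 arrays, it stood at 0.14 for the core subunits of complex I and 0.14 for complex II, but at -0.043 for the accessory subunits of complex I and -0.052 for complex IV. It exceeded WT replicate 2 for all 6 core subunits of complex I and for 3 of 10 subunits of complex IV. The share over all genes above the dim level was 50.7%. TCA cycle genes also rose in that array, above WT replicate 2 for 14 of 18 and with a median deviation of 0.12. Of all genes above the dim level, 27.5% had their highest and 21.7% their lowest value in WT replicate 3. Ndufv1, the flavoprotein that oxidizes NADH, had 10.96 there against 10.57 and 10.80 in the other WT pools. Ndufa4 had 9.79 there against 10.30 and 10.24.

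Other gene groups moved with the same arrays. The mean over 14 neutrophil markers, all above the dim level, was highest in Lxn-/- replicate 3 (11.62) and lowest in WT replicate 3 (9.43). The list was split, as Lxn-/- replicate 3 was the highest array for 10 of the 14 and the lowest for 2. Elane, Ctsg, Prtn3 and Mpo, 4 of the 14, were lower in Lxn-/- replicate 3 than in Lxn-/- replicate 2. For Elane these values were 12.59 and 13.24. Mitosis genes were lowest in Lxn-/- replicate 3 (10.32) and highest in WT replicate 3 (10.82), and erythroid markers likewise (9.12 and 10.07). Between genotypes, 18 of 19 mitosis genes were lower in Lxn-/- (median -0.15), as were 11 of 11 erythroid markers (median -0.29), while 11 of 14 neutrophil markers were higher (median 0.47), with 0 genes called in each list. The mean over 14 B cell and plasma cell markers was 10.38 to 10.82 in WT and 10.17 to 10.33 in Lxn-/-. All 14 were lower, with a median of -0.39, and 9 had an unadjusted limma p under 0.05 (64.3%, against 2.47% of all genes), but 0 were called after adjustment. The mean over 9 markers of T and NK cells ran from 8.31 to 8.70 in WT and from 8.24 to 9.06 in Lxn-/-. The part of these lists in the values of the subunits was not tested. In pooled cells, fewer cells of a type and less RNA per cell cannot be told apart.

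**Figure D4:**
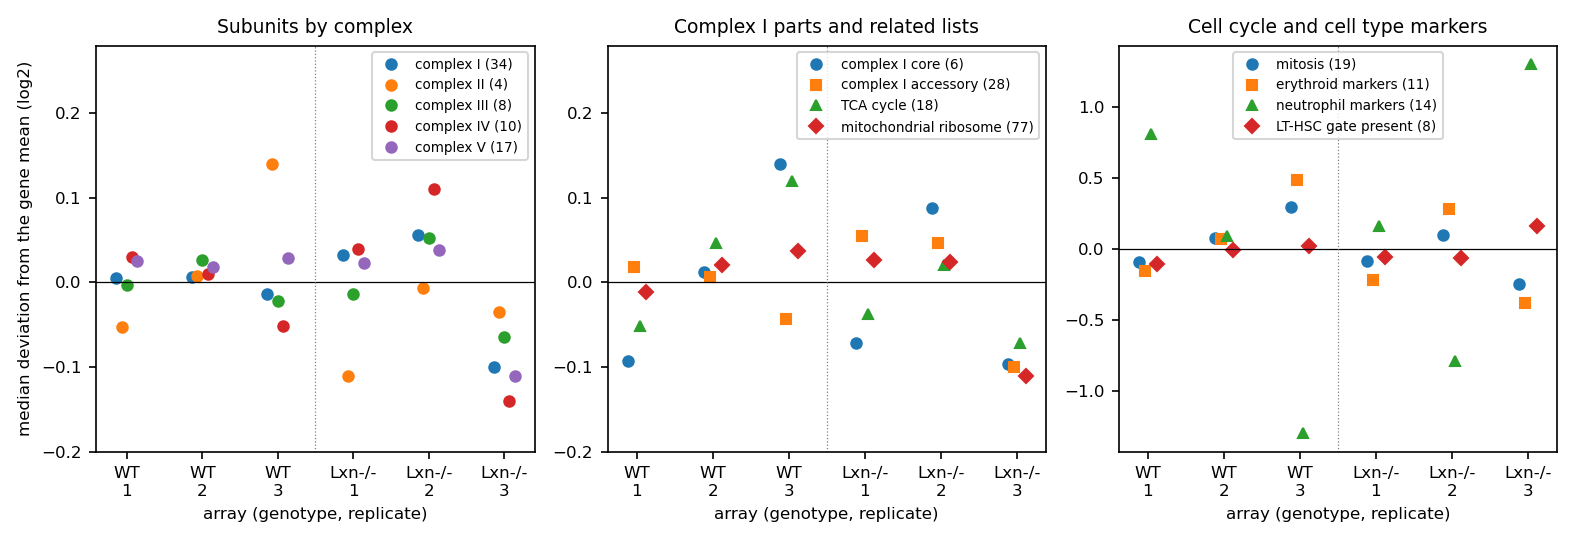
Median deviation from each gene's mean over 6 arrays (y axis, log2) on each array (x axis) for the subunits by complex, for parts of complex I and related lists, and for cell cycle and cell type markers, with the number of genes in parentheses. Complexes I, III, IV and V are lowest in Lxn-/- replicate 3, and the third panel has a wider scale.

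Genes around the respiratory chain gave no calls either. Of 37 assembly factors with other names, 19 were lower and 0 had an unadjusted p under 0.05 in limma, with a median of -0.0019. Lyrm7, a chaperone of the Rieske protein, differed by -0.16 (SE 0.071) and Nubpl, an iron-sulfur delivery factor of complex I, by 0.22 (SE 0.12). Of 18 TCA cycle genes 14 were lower, with a median of -0.056 and 0 at an unadjusted p under 0.05, and Pdhb and Mdh2 differed by 0.18 (SE 0.083) and -0.11 (SE 0.074). Electron carriers and coenzyme Q genes had a median of 0.0027 over 20 genes, where Pdss2 and Coq3 differed by 0.22 and -0.16. Regulators of mitochondrial biogenesis had a median of 0.0035 over 18 genes, where the mitochondrial polymerase gene Polg2 differed by 0.24 and the helicase gene Twnk by -0.13, and again 0 genes of either list had an unadjusted p under 0.05.

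Mitochondrial ribosomal proteins, which translate the subunits encoded in mitochondrial DNA, had a median of -0.043 over 77 genes, with 53 lower (68.8%), beside -0.013 and 56% over all genes. Mrpl44 differed by -0.24 (SE 0.091, limma adjusted p = 0.993) and was the only one of them at an unadjusted p under 0.05 (1.3%, against 2.47% of all genes lower at that level). Mrps24 differed by -0.20 (SE 0.087). The groups were separate and lower in Lxn-/- for 9 of the 77 (11.7%, against 5.49% of all genes and 4.58% above the dim level). They were separate and higher for 2 (2.6%, against 3.3% and 3.45%). These shares were not tested. The median deviation of the 77 genes in Lxn-/- replicate 3 was -0.11, like that of complex V. Of the subunits encoded in mitochondrial DNA, 2 were measured by named probe sets. COX2, the second subunit of cytochrome c oxidase, had 13.62, 13.36 and 13.44 in WT and 13.65, 13.58 and 13.57 in Lxn-/-, a difference of 0.12 (SE 0.083). ND3 of complex I had 12.77, 12.58 and 12.60 in WT and 12.75, 12.61 and 12.74 in Lxn-/-, a difference of 0.051 (SE 0.079). Neither was lowest in Lxn-/- replicate 3.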

How the data were processed

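The deposited values are log2 expression values per probe set, normalized by the authors with RMA, per the labels' processing notes and the design text; the notes also name Partek 6.0. The sources used here do not give the background step, summary level or genome build. Of 35557 probe sets, 21789 had 1 platform symbol, 1621 several and 12147 none; the 23410 with a symbol were fitted with limma 3.58.1 in R 4.3.3 (lmFit, eBayes, no covariates, two-sided, Benjamini-Hochberg over all 23410, threshold 0.05). SE is limma's moderated standard error. The fit was first tested on simulated data. The members and lists were chosen with earlier results of these data known. Genes were named by a rule: all of complexes II and III, in each other class the 4 of lowest p, the brightest, the dimmest and those with separate groups on every probe set, isoform families whole, and up to 2 of each other list. Atp5a1, Atp5d, Atp5j2, Atp5k, Atp5l, Ndufv1, Cox5a, Cox5b, Ndufaf2, Ndufaf7, Kit, Hlf, Cd34, Flt3, Itgam, Cd48, Cd3e, Ly6g, Elane, Ctsg, Prtn3 and Mpo were added after their values were seen. Ndufs3 was added for its promoter stretch. Replicate numbers were not used to pair the arrays in the main fit. Alternatives were quantile and median scaling, a filter on dim probe sets, all probe sets, probe set means, array weights, a variance trend, a replicate block and leaving out each array. Ndufb4 and Cox7c were not analysed here.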

Additional observations from a re-analysis of the deposited data

How the results depend on the processing

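No gene of the 89 passed an adjusted p of 0.05 under any alternative that was run. Before adjustment, the number of genes with a limma p under 0.05 was 2. It was 1 with all probe sets tested, 1 with array weights and 1 with the replicate block. Without single arrays it ran from 0 to 4 (0 without WT replicate 3, 4 without Lxn-/- replicate 3). Over all 23410 fitted probe sets the count at that level was 914. In the same order it was 651, 1807 and 1173, and 611 to 1556 without single arrays. The number of genes with separate groups was 4, and 9 with a common array median. It ran from 5 to 24 without single arrays, where fewer values need to be apart (20 without WT replicate 1, 24 without Lxn-/- replicate 3). Separate groups were not counted over all genes in these alternatives, so these counts give no result about the 89 genes. Without single arrays the median differences changed sign in all complexes but complex II, and over all subunits. They ran from -0.033 to 0.0026 in complex I, from -0.14 to -0.041 in complex II, from -0.057 to 0.0049 in complex III, from -0.041 to 0.081 in complex IV and from -0.075 to 0.024 in complex V, and from -0.046 to 0.020 over all subunits. The count of subunits lowest in Lxn-/- replicate 3 was 34, and 34 to 37 under 5 alternatives chosen after seeing the data.

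Signs changed for small differences, and the cause was not tested. With a common array median values were -0.0031 for Atp5c1, -0.016 for Cox4i1, -0.0085 for Cox6b1, -0.037 for Cox7a1, -0.016 for Cox7a2, -0.032 for Ndufb3, -0.0065 for Uqcrb and -0.022 for Uqcrh. With quantile normalization Cox7a1 was -0.0098 and Ndufb3 -0.036. With array weights Cox7a1 was -0.035, Cox8c 0.016, Sdhb 0.025 and Uqcr11 -0.0075. Of 48 named genes, 30 kept their sign without each single array. Ranges of the other 18 were Atp5b -0.18 to 0.015, Cox4i1 -0.061 to 0.1, Cox4i2 -0.091 to 0.0052, Cox6a2 -0.11 to 0.022, Cox6b1 -0.03 to 0.14, Cox6b2 -0.21 to 0.083, Cox6c -0.0039 to 0.1, Cox7a1 -0.046 to 0.057, Cox7a2 -0.037 to 0.11, Cox8c -0.18 to 0.024, Ndufa4 -0.086 to 0.17, Ndufaf3 -0.065 to 0.022, Ndufb3 -0.042 to 0.085, Ndufs7 -0.23 to 0.026, Sdhb -0.1 to 0.068, Uqcr11 -0.094 to 0.26, Uqcrb -0.017 to 0.076, Uqcrh -0.025 to 0.094.

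Same-numbered arrays deviated together for replicate 1 (correlation 0.372) but not for replicates 2 and 3 (-0.072 and -0.081). WT replicate 3 also deviated together with Lxn-/- replicate 2 (0.362). With 3 arrays of each genotype, these correlations cannot show whether the numbers pair the samples. The replicate block left 0 of 89 genes called. The array number limits the precision.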
